A study of Mus musculus with 6 samples.

Results

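The superoxide dismutases Sod1, Sod2 and Sod3, catalase (Cat) and the peroxiredoxins Prdx1 to Prdx6 were followed in the forebrain of mice after water avoidance stress (WAS). They were picked out by gene symbol, as a family chosen with earlier results of these data known, and make up 10 of the 23282 entries of the count tables. RNA was taken from 1 hemisphere of the forebrain, without olfactory bulbs and cerebellum, of male C57BL/6J mice aged 8 to 10 weeks, and the labels give the tissue only as brain. The WAS group held 3 mice that spent 1 h on a small platform surrounded by water. The control group held 3 mice that spent 1 h on the same platform in a container without water. The labels name no transgene or drug in either group, and all mice were killed directly after the hour. QuantSeq 3′ mRNA-Seq, which reads the end of a transcript next to the poly(A) tail, gave 1 library per mouse.

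Superoxide, formed when an electron escapes to oxygen in mitochondria or is placed there by NADPH oxidases, is turned into hydrogen peroxide by superoxide dismutases. Catalase breaks hydrogen peroxide down in peroxisomes, and peroxiredoxins reduce it with a reactive cysteine that is mostly recharged by thioredoxin. In the brain, which uses much oxygen and is rich in unsaturated lipids, these enzymes are known for limiting oxidation of lipids and proteins and for shaping peroxide signals. Several of their genes are known targets of Nrf2, a transcription factor that binds antioxidant response elements.

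The sequences upstream of the genes are shown first because such an element is the best known link between them. RefSeq promoter entries (assembly GRCm38.p6) were found for 8 of the 10 genes, all but Sod3 and Prdx6. The start site of the Prdx4 entry lies inside the span of that gene and not at its end, while those of the other 7 match the start of the gene. The 250 bases before the start site were searched on both strands for the core TGACNNNGC, in which N is any base, and which reads GCNNNGTCA on the other strand. It was present in 2 of the 8 promoters (25%), those of Prdx1 and Sod1, against 10.2% of all 32851 entries. In both, the core lay on the strand opposite to the gene. The 2 stretches are printed 5′ to 3′ on the strand of the gene, with the core in capitals, and lie at chr4:116685426-116685514 (+) for Prdx1 and chr16:90220666-90220754 (+) for Sod1.
Prdx1: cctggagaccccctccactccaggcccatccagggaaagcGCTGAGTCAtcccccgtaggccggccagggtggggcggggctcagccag
Sod1: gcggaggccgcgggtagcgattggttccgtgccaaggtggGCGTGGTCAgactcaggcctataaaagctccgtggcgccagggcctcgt
The core began 133 bases before the start site of Prdx1 and 56 bases before that of Sod1. The GC box, searched as GGGCGG on both strands, was present in 7 of the 8 promoters, which is 87.5%, against 32.7% of all entries. The letters of the TATA box, searched as TATAAA on both strands, were present in 3 of the 8, in Sod1, Prdx1 and Prdx3, against 12.4% of all entries. On the strand of the gene, they began 37 bases before the start site of Sod1 and 29 bases before that of Prdx1. In Prdx3 they lay on the opposite strand, 239 bases before the start site. No match of 1 motif overlapped a match of another in these promoters. A match is a description of the sequence, and no match says only that these letters are not in the 250 bases searched.

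The libraries held between 9248520 and 10502029 counts, of which 4.96% to 7.32% fell on the ribosomal RNA gene Rn45s. Groups were taken from the sample labels. Inside the count tables, the headings of the libraries labelled WAS begin with WC and those of the libraries labelled control begin with WS, so which group is which is uncertain, and every direction given here would turn round if the labels had been exchanged. Levels are counts scaled to the library total (CPM, a per-million scale), given as mean ± SD over 3 libraries. Fold changes, written as log2 of WAS over control with their standard errors (SE), come from the quasi-likelihood test of edgeR with TMM scaling over the 15239 genes tested, and their p-values were adjusted over these genes by the Benjamini-Hochberg method. The p-values measure the spread between these 3 and 3 mice, and in bulk tissue fewer cells of a type and less RNA per cell cannot be told apart.

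All 10 genes passed the filter on low counts, and 0 of 10 had an adjusted p under 0.05. The smallest adjusted p of the 10 was 0.681 by edgeR, and among all genes tested 0% passed, with a smallest adjusted p of 0.477. At an unadjusted p under 0.05, 1 of the 10 genes was called, Cat, which was higher in the libraries labelled WAS, against 7.24% of all genes in either direction and 3.85% called higher. DESeq2 called 0 of the 10 at that level, against 5.82% of all genes, and limma on quantile-normalized counts called 2, Cat and Sod1, against 6.98%. With a change of at least 1.5-fold asked for as well, edgeR called 0 of the 10, against 2.38% of all genes. The fold change was above 0 for 7 of the 10 genes, against 50.2% of all genes, with a median of 0.09 on the log2 scale beside 0.00 for all genes. The median of the 10 was 0.06 without WAS replicate 3 and up to 0.13 over the other omissions of 1 library.

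On the scale of the library total, 3 of the 10 genes had every library labelled WAS above every control library, Sod1, Cat and Prdx2, and none had every one below. Among all genes, 12.2% had groups that did not overlap in this way and 8.42% had the WAS libraries above. The scaling bears on this count. With TMM the 2 genes Cat and Prdx2 remained apart and Sod1 overlapped, where 11.7% of all genes were apart. Among all genes with an unadjusted p under 0.05, 53.1% were higher in WAS with TMM and 71.1% with the library totals. The 10 genes together took 0.1249%, 0.1268% and 0.1251% of the counts in WAS replicates 1, 2 and 3, and 0.1201%, 0.1143% and 0.116% in control replicates 1, 2 and 3, a sum in which Sod1 weighs most.

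**Figure D1:**
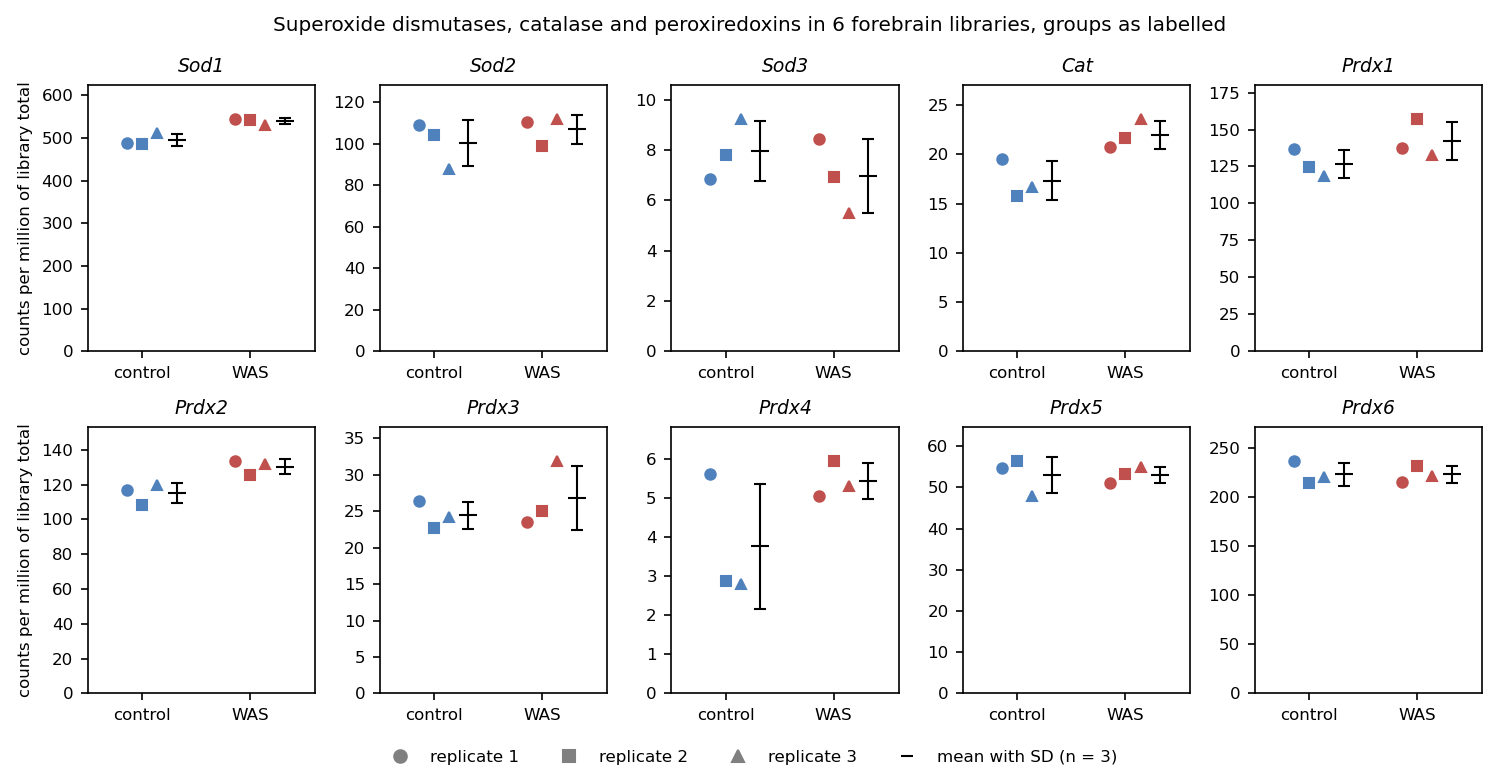
Level of each of the 10 genes in each library, in CPM on axes that start at 0, with replicates as symbols and the mean and SD of 3 libraries per group beside them. The WAS libraries lie above all control libraries for Sod1, Cat and Prdx2, and for Prdx4 control replicate 1 stands near the WAS libraries at 5.62 CPM while the other control libraries lie below 3 CPM.

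Sod1, the copper and zinc dismutase of the cytosol, was close to level across the 6 mice. It measured 544, 543 and 532 CPM in WAS replicates 1, 2 and 3 and 488, 487 and 513 CPM in control replicates 1, 2 and 3. All 3 WAS libraries lay above the highest control library, by a margin that closed under TMM scaling. The means were 539 ± 6.79 CPM and 496 ± 14.7 CPM, and the edgeR fold change was 0.08 on the log2 scale (SE 0.07, adjusted p = 0.889), a ratio of 1.06 with a 95% interval from 0.946 to 1.19. The gene lies at chr16:90220762-90226333 (+). Its 3′ end overlaps that of Scaf4 on the opposite strand by 650 bases, and its transcript end shares a stretch of 50 bases with the pseudogene Gm8566. Scaf4 itself differed by 0.02 on the log2 scale (SE 0.12). Whether counting used the strand is not given in the sources used here, so reads of the overlapping stretch cannot be told apart.

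Sod2, the manganese dismutase of mitochondria, measured 110.4, 98.8 and 111.9 CPM in the WAS libraries and 109.2, 104.1 and 87.9 CPM in the controls. The groups overlapped, and the lowest value of all was that of control replicate 3. Its fold change was 0.06 (SE 0.10, edgeR adjusted p = 0.954), which turned to -0.02 when that library was left out. The end of the longest annotated transcript at chr17:13007839-13018119 (+) shares a stretch of 50 bases with transcripts of 30 other genes. Since the authors counted reads with several alignments, the level of Sod2 is uncertain to that extent.

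Sod3, the dismutase that is secreted and bound to the matrix outside cells, was the one dismutase with a fold change below 0. It measured 8.44, 6.92 and 5.51 CPM in the WAS libraries and 6.86, 7.80 and 9.22 CPM in the controls, from 55 to 92 counts a library. The groups overlapped, with the lowest value in WAS replicate 3 and the highest in control replicate 3. With a fold change of -0.23 (SE 0.22, edgeR adjusted p = 0.899), the interval of the ratio, 0.608 to 1.20, included values more than 1.5-fold lower. The fold change was -0.39 without WAS replicate 1, -0.09 without WAS replicate 3 and -0.10 without control replicate 3.

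Cat, which encodes the peroxisomal enzyme that splits hydrogen peroxide into water and oxygen, showed the smallest p of the 10 genes. It measured 20.8, 21.6 and 23.5 CPM in the WAS libraries and 19.5, 15.8 and 16.6 CPM in the controls, from 164 to 235 counts a library. Every WAS library lay above every control library under each of the 5 scalings tried, and control replicate 1 was the control nearest to them. The means were 22.0 ± 1.42 CPM and 17.3 ± 1.95 CPM, both with n = 3. The fold change was 0.30 on the log2 scale (SE 0.13), a ratio of 1.23 with a 95% interval from 1.01 to 1.51, with an edgeR p of 0.0439 before and 0.681 after Benjamini-Hochberg adjustment. For a single gene, the smallest p of a two-sided exact permutation test between groups of 3 is 0.1. The difference did not pass the adjusted threshold, and its unadjusted call was lost when WAS replicate 2, WAS replicate 3, control replicate 2 or control replicate 3 was left out, with fold changes between 0.24 and 0.39 over the 6 omissions. The gene lies at chr2:103453904-103485153 (-), and none of the transcripts of other genes shared a stretch of 50 bases with its transcript end.

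Prdx1, a cytosolic peroxiredoxin recharged by thioredoxin and a known Nrf2 target, measured 137.4, 156.9 and 132.6 CPM in the WAS libraries and 136.9, 124.8 and 118.7 CPM in the controls. The highest value was in WAS replicate 2, 2 of the 3 WAS libraries exceeded every control, and WAS replicate 3 lay below control replicate 1. In the edgeR fit it differed by 0.13 on the log2 scale (SE 0.09, adjusted p = 0.834), and by 0.05 without WAS replicate 2.

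Prdx2, the closely related cytosolic enzyme, is known to be abundant in neurons and red blood cells. It measured 133.4, 125.3 and 132.0 CPM in the WAS libraries and 116.9, 108.5 and 119.9 CPM in the controls. The groups did not overlap under any of the 5 scalings, with means of 130 ± 4.32 and 115 ± 5.91 CPM. The fold change was 0.14 (SE 0.08, edgeR unadjusted p = 0.115, adjusted p = 0.774), a ratio of 1.10 with an interval from 0.972 to 1.25. At chr8:84969622-84974811 (+), the 3′ end of Prdx2 overlaps the 3′ end of Junb, an immediate early gene on the opposite strand, by 351 bases. Junb counted 1569, 1182 and 1422 in the WAS libraries and 1339, 1180 and 963 in the controls, and its CPM were higher in all 3 WAS libraries with a fold change of 0.30 (SE 0.11, edgeR adjusted p = 0.620). Its part in the Prdx2 values was not tested.

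Prdx3, the peroxiredoxin of mitochondria, measured 23.5, 25.1 and 31.9 CPM in the WAS libraries and 26.4, 22.7 and 24.2 CPM in the controls. WAS replicate 3 stood above the other 5 libraries, and the fold change of 0.10 (SE 0.14, edgeR adjusted p = 0.941) turned to -0.04 without it. Prdx3 lies at chr19:60864066-60874538 (-).

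Prdx4, the peroxiredoxin of the endoplasmic reticulum, had the largest fold change of the 10 genes and the fewest counts, and its library values differed most. It measured 5.07, 5.95 and 5.31 CPM in the WAS libraries and 5.62, 2.89 and 2.81 CPM in the controls, which are 51, 55, 53, 59, 30 and 28 counts. Control replicate 1 lay among the WAS libraries, and both other control libraries lay well below. The fold change was 0.47 (SE 0.29, edgeR adjusted p = 0.797) and the interval of the ratio ran from 0.886 to 2.17. Without control replicate 1 the fold change was 0.84 with an unadjusted edgeR p of 0.0149, and without control replicate 2 or 3 it was 0.32 or 0.31. The gene lies at chrX:155323918-155342272 (-).

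Prdx5, which is found in mitochondria, peroxisomes and the cytosol, measured 51.1, 53.3 and 55.0 CPM in the WAS libraries and 54.7, 56.4 and 48.0 CPM in the controls. Prdx6, which uses a single cysteine and glutathione, has phospholipase A2 activity and is known in brain mainly from astrocytes, measured 215, 232 and 222 CPM in the WAS libraries and 236, 214 and 220 CPM in the controls. In both genes the WAS values lay inside the range of the controls. The fold changes were -0.03 (SE 0.10) and -0.04 (SE 0.08), with edgeR adjusted p of 0.968 and 0.961, and the ratios had intervals from 0.844 to 1.13 and from 0.863 to 1.10. With total-count scaling the value of Prdx5 was 0.00 and lay just above 0. Prdx5 lies at chr19:6906697-6910106 (-) and Prdx6 at chr1:161240112-161251210 (-).

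**Figure D2:**
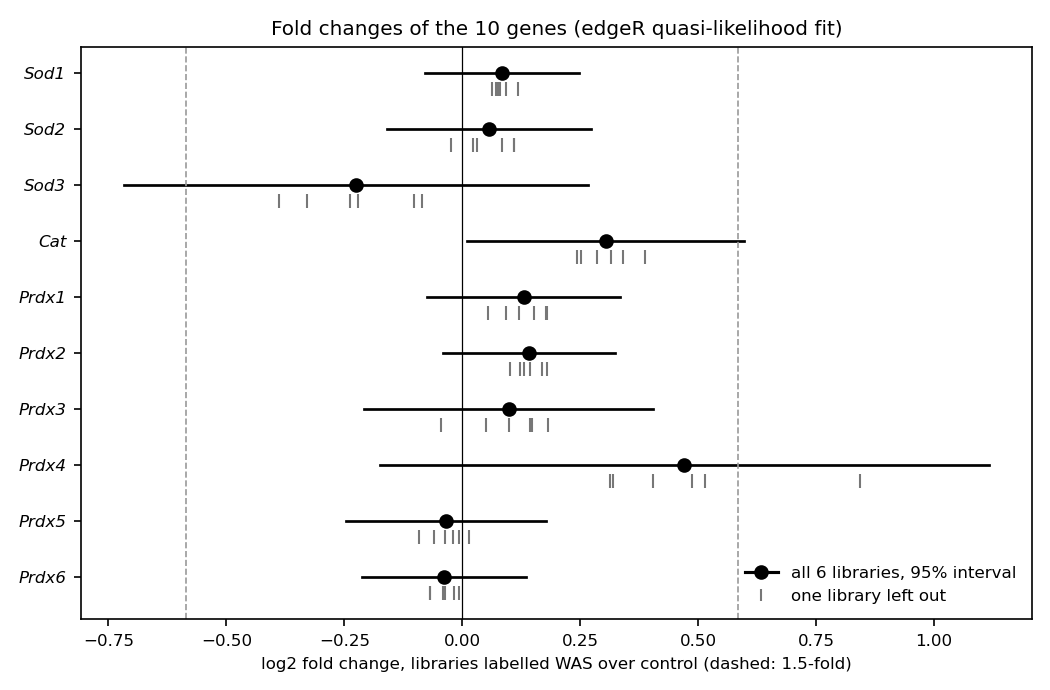
Log2 fold change of each gene, libraries labelled WAS over control, from the edgeR fit on all 6 libraries with its 95% interval, and below it the values with 1 library left out in turn. The interval of Cat lies just above 0, from 0.01 to 0.60, those of the other 9 genes include 0, and the value of Prdx4 without control replicate 1 stands apart at 0.84.

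The intervals bound what these libraries could show. For 7 of the 10 genes, all but Sod3, Cat and Prdx4, the 95% interval lay within a 1.5-fold change in either direction. The spread over the 6 libraries, as a coefficient of variation of CPM, ran from 4.05% for Prdx6 and 5.01% for Sod1 to 17.6% for Sod3 and 30.3% for Prdx4. Counting error alone would give 2.11% and 1.39% for the first pair and 11.6% and 14.7% for the second, and for each of the 10 genes the coefficient was above that of counting alone, by least for Prdx5 at 5.76% against 4.33%. The lowest of the 6 values was in control replicate 2 for 5 genes, in control replicate 3 for 4 genes and in WAS replicate 3 for Sod3. The highest was in WAS replicate 3 for 3 genes, in WAS replicates 1 and 2 for 2 genes each, and in each control library for 1 gene.

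The enzymes that supply and restore these proteins were described with 5 lists of 62 genes, of which 57 were tested. The unadjusted test called 2 of the 57 genes, Gpx3 and Nqo1, both higher in the libraries labelled WAS and both past 1.5-fold, and the adjusted test of edgeR called 0. Among all genes tested, 7.24% were called, 3.85% were called higher and 2.38% also passed 1.5-fold. Values were above 0 for 28 genes and below 0 for 29, with a median of -0.02. Groups did not overlap for 9 genes, 7 with WAS above, where 12.2% of all genes were apart.

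The thioredoxin system, which recharges most peroxiredoxins, had 10 of 10 genes tested, 3 with values above 0 and 7 below, 0 called by the unadjusted edgeR test and a median of -0.07. Its most abundant member by counts, thioredoxin itself (Txn1), counted 988, 1033 and 1261 in WAS and 1218, 1226 and 1095 in control libraries, with a fold change of -0.07 (SE 0.10). The remaining genes named in this paragraph were chosen after their values were seen. Srxn1, the sulfiredoxin that repairs overoxidized peroxiredoxins, counted 1101, 1068 and 1114 against 1104, 1070 and 973, and its CPM did not overlap between groups although the fold change was only 0.10 (SE 0.08). Txnrd3, a thioredoxin reductase, counted 68, 45 and 57 against 40, 46 and 33, did not overlap in CPM either, and had a fold change of 0.53 (SE 0.24) with an unadjusted edgeR p of 0.0535. Txnip, the lowest of the list, differed by -0.30 (SE 0.17, edgeR unadjusted p = 0.0974), with groups that overlapped.

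In the glutathione system, which reduces peroxides by a parallel route, 14 of 17 genes were tested, 10 with values above 0 and 4 below, 1 called higher, and the median was 0.09. That gene was Gpx3, the secreted glutathione peroxidase, which counted 125, 110 and 135 in the WAS libraries and 69, 63 and 113 in the controls. All 3 WAS libraries lay above the controls by CPM, with control replicate 3 nearest. Gpx3 differed by 0.61 on the log2 scale (SE 0.24) with an edgeR p of 0.0251 before and 0.628 after adjustment, and it ranged from 0.45 without control replicate 2, where p was 0.105, to 0.95 without control replicate 3 over the 6 edgeR fits with 1 library left out. The unadjusted call was also lost without WAS replicate 3 or control replicate 1. The groups overlapped after quantile normalization. Glrx5, a mitochondrial glutaredoxin of iron-sulfur cluster assembly and the most abundant of the list by counts, had a fold change of 0.16 (SE 0.09), with the WAS libraries above. Gpx7, the lowest of the list and named after its values were seen, had a fold change of -0.53 (SE 0.33) with overlapping groups. Gpx2 counted 0 to 4 and was not tested, and Gpx5 and Glrx3 had 0 counts in all 6 libraries.

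Copper delivery, which loads Sod1 and Sod3, had 4 of 5 genes tested, 3 above 0 and 1 below, 0 called by the unadjusted edgeR test and a median of 0.10. The chaperone Ccs, which hands copper to Sod1, counted 154, 117 and 120 in WAS and 122, 98 and 132 in control libraries. Its groups overlapped, with a fold change of 0.18 (SE 0.18), and it was named after its values were seen. The most abundant gene by counts, the copper chaperone Atox1, had a fold change of -0.08 (SE 0.13).

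The list of Nrf2 and other regulators had 11 of 12 genes tested, 5 above 0 and 6 below, 1 called, and a median of -0.03. Nqo1, a quinone reductase and a standard target of Nrf2, counted 21, 18 and 22 in the WAS libraries and 9, 10 and 13 in the controls. The groups did not overlap, and the fold change was 0.85 (SE 0.36) with an edgeR p of 0.0378 before and 0.670 after adjustment. Its unadjusted call was lost in 5 of the 6 fits with 1 library left out, all but that without control replicate 3, over fold changes from 0.73 to 1.01. Nfe2l1, the relative of Nrf2 with the most counts on the list, counted 1577, 1611 and 1796 in WAS and 1945, 1871 and 1904 in control libraries. All 3 WAS values lay below the controls by CPM, with a fold change of -0.16 (SE 0.08, edgeR unadjusted p = 0.0836), but the groups overlapped when Rn45s was taken out of the totals. Nfe2l2, which encodes Nrf2 and was named after its values were seen, had a fold change of 0.14 (SE 0.14), and Hmox1, another standard target named in the same way, -0.03 (SE 0.67) on 1 to 22 counts.

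The peroxisome biogenesis list, which concerns the organelle that holds catalase, had all 18 genes tested, 7 above 0 and 11 below, 0 called by the unadjusted edgeR test and a median of -0.04. Abcd3, the membrane transporter with the most counts on the list, differed by 0.04 (SE 0.10). The next genes were named after their values were seen. Pex6 was lower in all 3 WAS libraries under each of the 5 scalings, by -0.28 (SE 0.15, edgeR unadjusted p = 0.0825). Pex14, at 0.14 (SE 0.10), was higher in all 3 by library total but overlapped with TMM.

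**Figure D3:**
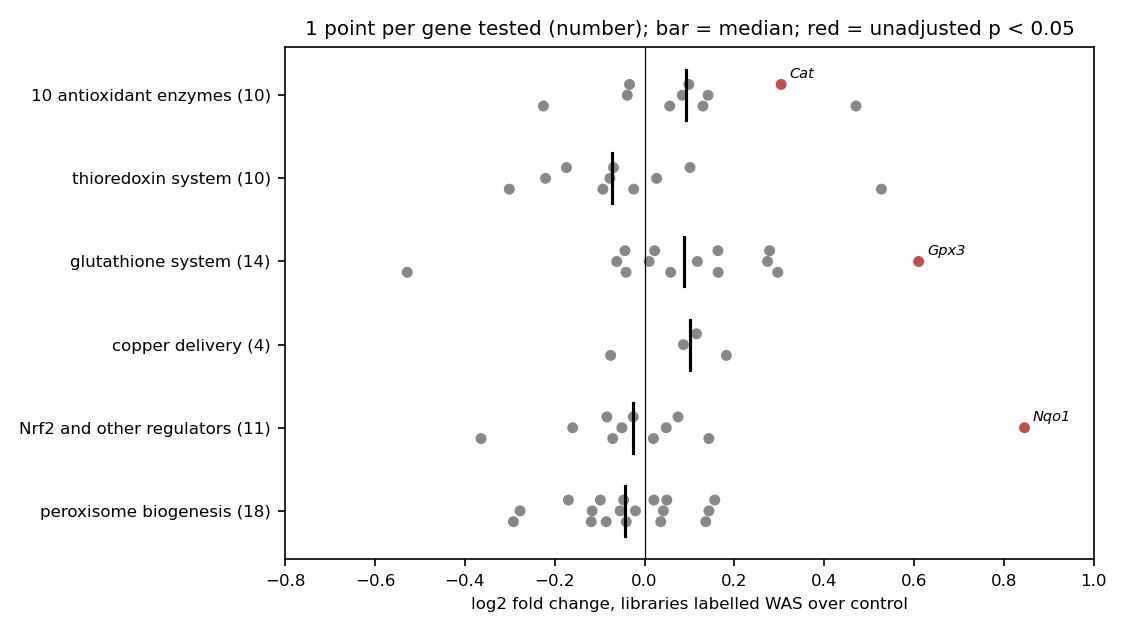
Log2 fold changes of the tested genes of the 10 enzymes and of 5 pathway lists, 1 point per gene, with a bar at the median of each list and genes with an unadjusted p under 0.05 in red. Cat at 0.30, Gpx3 at 0.61 and Nqo1 at 0.85 are the called genes, all to the right of 0, and the medians run from -0.07 to 0.10.

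Markers of the cell types and regions of the hemisphere were set beside these values. The summed neuron markers, 7 of 7 tested with Syt1 the most abundant, were lower in every WAS library, at 5535 to 5786 CPM against 6053 to 6654 CPM. Of these 7 genes, 2 were called lower at an unadjusted p under 0.05, Syt1 by 0.24 (SE 0.07) and Rbfox3 by 0.36 (SE 0.11). Among all genes, 7.24% were called in either direction, a share that includes the 3.85% called higher. The list was not uniform, with values above 0 for Nefl (0.12) and Nefm (0.03), values below 0 for Snap25 (-0.26), Stmn2 (-0.06) and Tubb3 (-0.01), and a median of -0.06. The summed astrocyte markers, led by Slc1a2, ran from 4240 to 4370 CPM and from 4243 to 4269 CPM, with 2 of 7 genes, Aqp4 and Aldoc, called higher at 0.35 and 0.22, beside 3.85% of all genes. The list had 4 values above 0 and 3 below, those of Slc1a2 (-0.10), Slc1a3 (-0.11) and Aldh1l1 (-0.00126).

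The groups overlapped in the sums of all 8 lists other than the neuron list. Choroid plexus markers summed to 49.9 CPM in WAS replicate 1 and 17.1 CPM in control replicate 2 against 928 to 1243 CPM in the other 4 libraries, led by Ttr, which counted 364 and 114 there and 8874 to 12599 in the others. Without those 2 libraries the fold change of Cat was 0.28 (edgeR unadjusted p = 0.126) and that of Prdx2 was 0.08. Striatum markers summed to 132 CPM in WAS replicate 1, 337 CPM in WAS replicate 3 and 1799 CPM in WAS replicate 2, around the control range of 894 to 1216 CPM, led by Ppp1r1b, while Drd2 had 0 or 1 counts in every library. Without WAS replicates 1 and 3 the fold change of Cat was 0.28, that of Prdx1 was 0.27 and that of Prdx2 was 0.08, with a single WAS library assumed to vary like the controls.

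Red blood cell markers, cells in which Prdx2 and catalase are known to be abundant, summed to 1309 to 2208 CPM in WAS and 1192 to 1567 CPM in control libraries. All 5 of the 6 genes that were tested had values above 0, with a median of 0.35 and 0 called by the unadjusted edgeR test. Hba-a1 counted 9240, 6265 and 11375 in WAS and 6754, 7520 and 8438 in control libraries, and Slc4a1 was at 0 to 2 counts. The highest sum was in WAS replicate 3, which also held the highest Cat value, while WAS replicate 2, with the lowest WAS sum, lay above all controls for both Cat and Prdx2. Oligodendrocyte markers, 6 genes with Mbp the most abundant, summed to 3076 to 3446 CPM in WAS and 2770.3 to 3322 CPM in control libraries. Microglia markers, led by Csf1r, summed to 306 to 366 against 320 to 369 CPM, and endothelial markers, led by Slco1a4, to 151 to 163 against 149 to 168 CPM. Smooth muscle and fibroblast markers, led by Col1a2, summed to 108 to 167 against 86.1 to 132 CPM. Of the 7 genes, 1 was called higher, Dcn at 1.22 (SE 0.31), beside 3.85% of all genes. The list had 5 values above 0 and 2 below, those of Acta2 (-0.14) and Tagln (-0.16), with a median of 0.34. The part of these cell types in the values of the 10 genes was not tested.

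**Figure D4:**
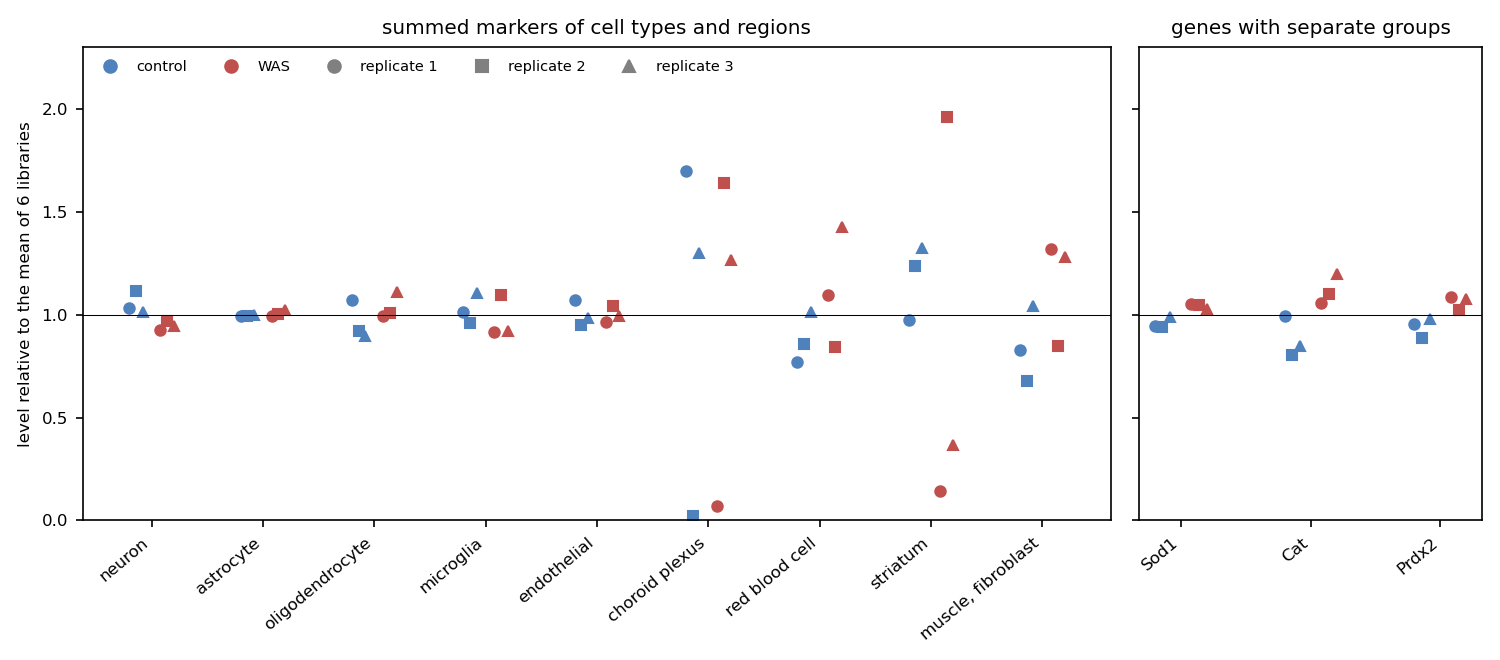
Summed CPM of 9 marker lists, left, and CPM of Sod1, Cat and Prdx2, right, each divided by its mean over the 6 libraries, on axes from 0 with groups in color and replicates as symbols. Neuron markers lie lower in all WAS libraries, choroid plexus markers are near 0 in WAS replicate 1 and control replicate 2, and striatum markers are low in WAS replicates 1 and 3.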

How the data were processed

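The deposited values were whole-number read counts per gene symbol. The authors aligned single-end QuantSeq reads of 75 bases with Bowtie2 and used Bedtools to count both unique and multiple alignments, the labels name the build mm10, and versions are not given in the sources used here. Counts were scaled by TMM and tested with edgeR 4.0.16 (glmQLFit, glmQLFTest, prior count 2) in R 4.3.3 on 15239 genes with a mean log2(quantile-normalized count + 1) of at least 2, without a replicate term. Each SE was obtained as the size of the fold change over the root of its F value, and the common biological coefficient of variation was 14%. The 95% intervals come from this fit and include the spread between libraries, while the counting error given beside it covers counting only, since the reads carry no molecular identifiers here.

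Alternatives were total-count scaling with and without Rn45s, DESeq2 1.42.0, limma 3.58.1 on quantile-normalized log2 counts, 2 other filters, a block for the replicate number, and omission of each library in turn. Of these steps, only the edgeR fit was tested on simulated counts. The members, lists and tests were chosen with earlier results of these data known. Named were all 10 members, from each pathway list the genes with an unadjusted p under 0.05 and the most abundant gene, and from each marker list the most abundant. Other genes, such as Rbfox3, Aqp4, Aldoc, Dcn, Drd2, Slc4a1 and the genes that overlap members, were named after their values or positions were seen. In each of 2 marker lists, 1 gene is not reported here and was left out of the sums. Positions and promoters are from RefSeq (GRCm38.p6) and shared transcript ends, searched over the last 500 bases, from GENCODE M21.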

Additional observations from a re-analysis of the deposited data

How the results depend on the processing

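Of 252 values recomputed under an alternative, 200 kept their direction and side of the threshold or, for counts, stayed within 1.5 times the reported count. Of the rest, 33 lost a call or fell further, 11 gained one or rose further, and 8 changed sign. The fold change of Cat stayed above 0 throughout but its unadjusted call was lost with DESeq2 (0.31), with no filter (0.30) and with the replicate number as a block (0.31). Other values past or below a limit were Sod1 with limma (0.16, now called) and Prdx5 with total-count scaling (0.00274). The counts of members with an unadjusted p under 0.05 were 0 with DESeq2, 2 with limma, 0 with no filter and 0 with the block, where the shares of all genes called were 5.82%, 6.98%, 6.9% and 9.37%. For pathway genes the counts at that level were 4 with either total-count scaling (7.66% and 7.56% of all genes) and 1 with DESeq2, with no filter or with the block, and those also past 1.5-fold were 1 in each of these last fits (1.96%, 2.49% and 2.64% of all genes). Chosen after seeing the data, leaving out the 2 libraries lowest in Ttr gave Cat 0.28, Prdx5 0.03705, and 0 members and 0 pathway genes with an unadjusted p under 0.05, where 4.43% of all genes had one and 1.67% also passed 1.5-fold. Leaving out the 2 lowest in Ppp1r1b gave Sod2 -0.06206, Cat 0.28, Prdx1 0.27, Prdx2 0.08, Prdx3 -0.00103 and Prdx6 0.01417. It left 5 of 10 members with groups apart, where 51.8% of all genes were apart in that comparison of 1 library with 3. With edgeR's default prior count, also added then, no call changed.

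With each library left out in turn, fold changes ran from -0.02369 to 0.11 for Sod2, -0.39 to -0.09 for Sod3, 0.24 to 0.39 for Cat, -0.04406 to 0.18 for Prdx3, 0.31 to 0.84 for Prdx4 and -0.09204 to 0.01443 for Prdx5, the last above 0 without control replicate 2. Members past both criteria numbered 0 to 1 (Prdx4, without control replicate 1, where 2.07% of all genes passed), members with an unadjusted p under 0.05 numbered 0 to 2 (shares of all genes 4.09% to 13.7%), and members with groups apart 3 to 5, the highest again without control replicate 1, where 21.4% of all genes were apart (19.6% to 30.1% over the 6 omissions). The median of the members was 0.06 to 0.13, and 0.05 without the 2 libraries lowest in Ppp1r1b. Pathway genes past both criteria numbered 0 to 3 and those with an unadjusted p under 0.05 numbered 0 to 6, lowest without WAS replicate 3 or control replicate 1 and highest without WAS replicate 2, where 4.27%, 4.92% and 13.7% of all genes were called and 1.67%, 2.07% and 5.39% passed both criteria. Over all genes, 362 passed both criteria, against 255 without WAS replicate 3 and 821 without WAS replicate 2, and 0 had an adjusted p under 0.05, against 484 without WAS replicate 2, 22 with DESeq2 and 49 with the replicate block. Same-numbered libraries had correlations of deviations of 0.0884, 0.115 and 0.101, and those of unlike numbers ran from -0.0986 to -0.00674. Each library correlated best with its own number. The methods name no block, so the main fit had no replicate term, and whether the numbers mark pairs was not tested. The causes of these changes were not tested. Prdx4 and Sod3 had under 100 counts in each library.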
